A study of Mus musculus with 23 samples.

Results

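The lectin, Fc and paired immune receptors of microglia were described across 6 groups of microarray samples. The members were all probe sets whose gene symbol starts with Clec, Siglec, Lilr, Pilr, Pira, Pirb, Cd300, Cd200r, Fcgr, Fcer1, Sirp or Klr, with Siglech and Fcrls left out. This gave 91 members, each a different gene, of 22203 probe sets, of which 19572 carry a symbol. Sorted by what textbook knowledge gives for the mouse receptor, 26 were inhibitory, 32 activating and 1 an adaptor (Fcer1g), 31 were put in neither class, and 1 (Clec2m) was unclassified.

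These receptors sit on myeloid cells and natural killer cells and often come in pairs that share a ligand and differ in their tail. An inhibitory receptor carries a tyrosine motif that recruits phosphatases such as SHP-1 or SHIP1, while an activating one has a short tail and signals through an adaptor. The adaptors Tyrobp (DAP12) and Fcer1g (the Fc receptor gamma chain) signal to the kinase Syk, and Hcst (DAP10) is a further adaptor. Their ligands are antibodies, sialic acids, class I histocompatibility molecules, CD200, CD47, lipids and sugars. In microglia, receptors of this kind are known for tuning phagocytosis and inflammatory activation, and human genetics links the relatives TREM2, CD33 and PILRA to Alzheimer disease.

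The microglia came from mouse cortex and hippocampus and were sorted as CD45 and CD11b positive cells. The aged APP group (4 samples, 12 months, strain APPswlnd, with a human amyloid precursor protein transgene) and the aged TAU group (4 samples, 9 months, strain P301S (PS19), with a human tau transgene) consisted of cells named active in the labels and isolated as Clec7a positive, and are called gated APP and gated TAU here. The other groups were APP at 3 months (3 samples), TAU at 3 months (4 samples), WT C57BL6 at 12 months (4 samples) and WT C57BL6 at 3 months (4 samples), with no such gate named. The titles of the gated TAU samples say 12 months while their age field says 9, and 9 was used. Strain, pathology and gate therefore differ together between the gated groups and WT at 12 months and cannot be told apart, and for gated TAU the age differs as well. The mean log2 signal of Y-linked genes was also uneven between these groups. In order of sample it was 6.75, 7.13, 5.96 and 4.16 in gated APP and 6.78, 6.53, 5.05 and 4.50 in gated TAU. In WT at 12 months it was 7.11, 6.32, 7.31 and 6.06. Whether this reflects the sex of the mice was not tested. Clec7a, the sort marker and itself a lectin receptor, was not analysed here because no probe set carries its symbol. The labels name neither the sex of the mice, the promoters of the transgenes, nor whether animals were pooled. They call the samples biological replicates without naming an animal for each, so that p-values measure the spread between these samples.

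Values are log2 signals as the authors deposited them, from RMA, a method that subtracts background, puts arrays on a common scale and combines the probes of each set. Array medians ran from 6.87 to 7.13. A mean counted as above background when it passed the 95th percentile of 1467 chemosensory receptor probe sets, genes with no known role in these cells, in the same group (7.73 to 8.11 across groups). All 8 measured microglial markers were above background in all 6 groups, and their mean level was 13.66 to 14.15 in gated APP, 13.84 to 14.16 in gated TAU and 14.76 to 15.31 in WT at 12 months. Of these 8, 4 were called lower in gated APP and 5 in gated TAU, and 0 higher in either. Of all probe sets 3.48% and 3.67% were called lower. The neutrophil marker list had a mean level of 6.54 to 6.67 in gated APP, 6.58 to 6.77 in gated TAU and 6.95 to 8.05 in WT at 12 months, and S100a8 was called lower in both gated groups. The dendritic cell list had 7.10 to 7.20 in gated APP, 7.34 to 7.47 in gated TAU and 7.37 to 7.75 in WT at 12 months, and Cd209a was called lower in gated APP. Of the 10 border macrophage markers, 2 were called lower in gated APP, and 2 higher and 1 lower in gated TAU. Of the 8 monocyte markers measured, 1 was called higher in gated APP. The part of these lists in the receptor changes was not tested. None of the 12 natural killer and T cell markers and none of the 8 mast cell and basophil markers passed background in any group. Lower and higher levels in sorted bulk RNA can come from the number of cells of a type or from the RNA per cell, which cannot be told apart. Comparisons were made with limma over all 22203 probe sets and called at a Benjamini-Hochberg adjusted p under 0.05.

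The promoters of the receptors on which the main results turn are shown first, as the 250 bases before the RefSeq transcription start in GRCm38.p6, on the gene's own strand. Lilr4b stands for the Lilr pair, Cd200r4, Siglecf and Fcgr4 for the other risers and Clec4a2 for the receptors that fell. Capitals mark the letters GAGGAAGT (a PU.1-type site), TGANTCA (AP-1), CACGTG (an E-box) and GAAA repeated after any 2 bases (an interferon-response type site), searched on both strands. The windows lie at chr16:44820478-44820727 for Cd200r4, chr10:51480362-51480611 for Lilr4b, chr7:43351091-43351340 for Siglecf, chr1:171018676-171018925 for Fcgr4 and chr6:123122440-123122689 for Clec4a2, all on the plus strand.
Cd200r4: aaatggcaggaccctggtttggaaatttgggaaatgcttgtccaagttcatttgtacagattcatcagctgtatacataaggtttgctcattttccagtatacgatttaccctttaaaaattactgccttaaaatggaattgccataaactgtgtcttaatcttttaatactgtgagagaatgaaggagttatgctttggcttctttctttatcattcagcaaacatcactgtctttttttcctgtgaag
Lilr4b: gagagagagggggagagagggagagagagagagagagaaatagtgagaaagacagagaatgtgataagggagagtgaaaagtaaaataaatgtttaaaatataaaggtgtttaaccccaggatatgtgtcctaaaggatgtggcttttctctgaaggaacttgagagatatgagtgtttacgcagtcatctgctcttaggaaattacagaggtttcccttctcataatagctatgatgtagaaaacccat
Siglecf: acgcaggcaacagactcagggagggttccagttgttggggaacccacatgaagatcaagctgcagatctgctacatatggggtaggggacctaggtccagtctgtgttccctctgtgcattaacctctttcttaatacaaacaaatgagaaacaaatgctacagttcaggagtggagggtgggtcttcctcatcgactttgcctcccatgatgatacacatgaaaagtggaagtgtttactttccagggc
Fcgr4: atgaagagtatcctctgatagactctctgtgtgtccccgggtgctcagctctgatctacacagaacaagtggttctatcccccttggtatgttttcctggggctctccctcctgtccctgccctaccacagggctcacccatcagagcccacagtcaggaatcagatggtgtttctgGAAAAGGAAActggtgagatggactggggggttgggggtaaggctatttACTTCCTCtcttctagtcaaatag
Clec4a2: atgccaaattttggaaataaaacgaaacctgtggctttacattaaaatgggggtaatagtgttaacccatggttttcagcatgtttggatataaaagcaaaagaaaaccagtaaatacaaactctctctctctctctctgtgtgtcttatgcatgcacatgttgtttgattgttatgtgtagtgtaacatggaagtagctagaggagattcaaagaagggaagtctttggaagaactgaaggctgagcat

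Of these 5 windows, the Fcgr4 one held matches, 1 to the PU.1-type letters and 1 to the interferon-response type letters. A promoter was in the table for 73 of the 91 members, with 81 windows in all. The PU.1-type letters stood in 4 of the 81 windows (4.94%), against 2.44% of all 32851 windows of the same length. The interferon-response type letters stood in 6 of 81 (7.41%), against 2.98% of all windows. The AP-1 letters stood in 5 (6.17%), against 6.75%, and the E-box letters in 3 (3.70%), against 6.02%. These matches are a description of the letters in the windows.

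Most of the members were at background. Of the 91, 56 were above background in no group and 18 were above it in all 6. Among the inhibitory receptors 12 of 26 passed in at least 1 group, and among the activating receptors 12 of 32. The natural killer receptors whose names start with Klr made up 26 members, of which 4 (Klrb1a, Klrb1b, Klrb1c and Klrd1) passed in at least 1 group, and none of the 10 Klra (Ly49) members did. The dim members are kept in every count.

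Relative to WT at 12 months, a small set of receptors rose steeply in both gated groups while the most abundant Fc and Cd300 receptors were not called. In gated APP, 19 of 91 members were called, 13 higher and 6 lower, where 9.08% of all probe sets were called (5.60% higher and 3.48% lower). In gated TAU, 19 members were called, 16 higher and 3 lower, where 8.76% of all probe sets were called (5.09% higher and 3.67% lower). All 4 gated APP samples lay above all WT samples for 13 members and below them for 8, against 6.72% and 4.83% of all probe sets. For gated TAU this held for 16 and 3 members, against 6.38% and 5.55% of all probe sets. The members called were 20.9% of the 91 in each comparison. The median log2 fold change of the members was -0.06 in gated APP and 0.12 in gated TAU, and that of all probe sets was -0.06 and -0.05. Both comparisons use the same WT samples. Each gives a set of 19, of which 14 (73.7% of each set) are in both with the same direction.

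**Figure D1:**
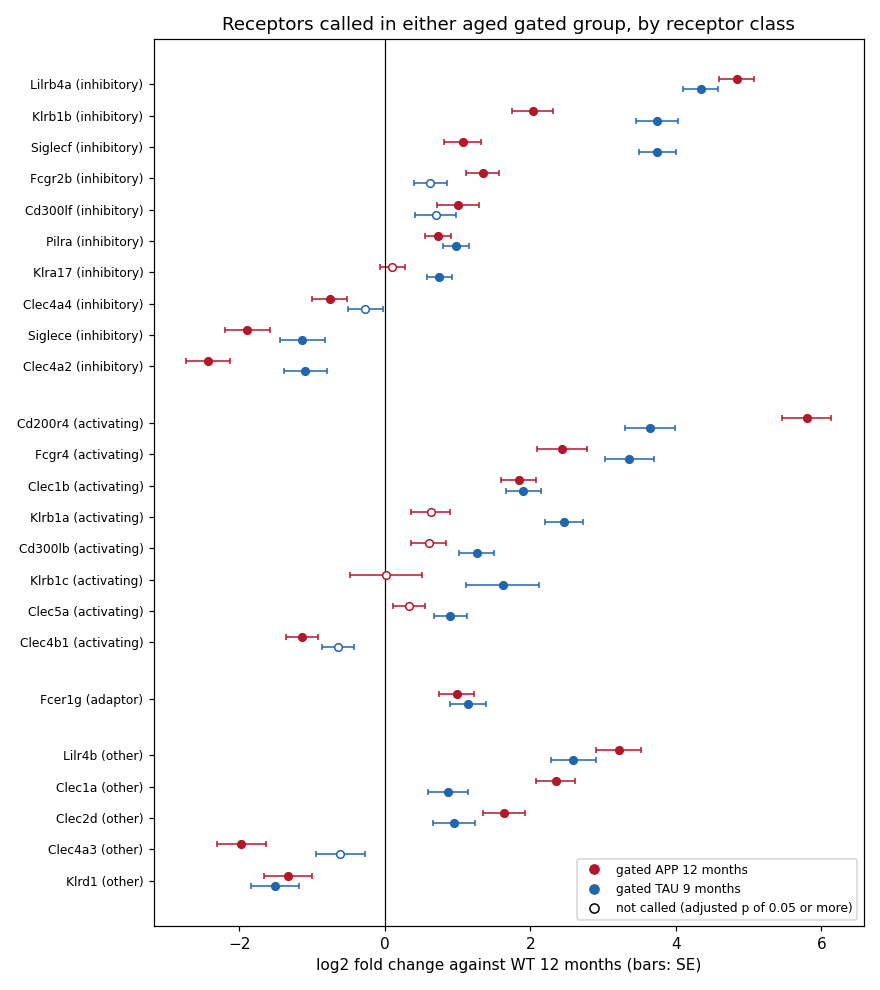
Log2 fold change of the 24 receptors called in either aged gated group, against WT at 12 months, with bars for the standard error. Red marks gated APP at 12 months and blue gated TAU at 9 months, filled points are called, and receptors are grouped by class. Among the gated APP points Cd200r4 and Lilrb4a lie farthest to the right, and Clec4a2 farthest to the left. Among the gated TAU points Lilrb4a lies farthest to the right, and Klrd1 farthest to the left.

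The inhibitory receptor Lilrb4a (gp49B), whose human relative LILRB4 binds apolipoprotein E, had one of the steepest rises. Its level was 15.99, 16.46, 16.41 and 16.25 in gated APP, 15.46, 15.85, 16.21 and 15.62 in gated TAU, and 11.46, 11.24, 11.78 and 11.29 in WT at 12 months. All gated samples lay above all WT samples. This was 28.5-fold in gated APP (log2 fold change 4.83 ± 0.24 SE, adjusted p = 1.52e-12) and 20.3-fold in gated TAU (4.34 ± 0.24, adjusted p = 1.33e-11, limma). The ungated samples at 3 months lay between 11.16 and 12.42, so that only the gated groups stood high.

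Its neighbour Lilr4b (gp49A), a close copy without the inhibitory motif, rose with it. Lilr4b had 11.83, 11.42, 11.85 and 10.66 in gated APP, 10.49, 11.14, 11.74 and 9.89 in gated TAU, and 8.19, 8.21, 8.31 and 8.19 in WT at 12 months. The rise was 9.29-fold in gated APP (adjusted p = 1.12e-07) and 6.02-fold in gated TAU (adjusted p = 3.90e-06, limma), with no overlap of samples. No gene lies between Lilr4b and Lilrb4a in RefSeq's order of protein-coding genes. Whether probes of one read transcripts of the other was not tested.

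Cd200r4 is an activating relative of the CD200 receptor that pairs with Tyrobp. It had 9.89, 10.86, 10.74 and 10.66 in gated APP, 8.40, 7.98, 9.61 and 7.56 in gated TAU, and 4.57, 4.41, 5.42 and 4.57 in WT at 12 months, where it was at background. In such a case the fold is a lower bound, set against the background level of the dim group. Cd200r4 was at least 5.39-fold higher in gated APP (log2 fold change of the measured means 5.79 ± 0.34 SE, adjusted p = 3.08e-11) and at least 1.22-fold higher in gated TAU (3.65 ± 0.34, adjusted p = 1.10e-07, limma). No ungated sample lay above 5.42.

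The other Cd200r receptors were not called. Cd200r1, the inhibitory receptor of CD200, averaged 8.20 ± 0.65 in gated APP and 8.17 ± 0.67 in WT at 12 months (SD, n = 4 each), with a log2 fold change of 0.03 ± 0.35 SE (adjusted p = 0.970, limma). Cd200r1 had 9.46, 8.94, 9.24 and 9.07 in gated TAU, against 8.46, 7.34, 8.89 and 7.98 in WT at 12 months, with no overlap. Its log2 fold change of 1.01 there missed the threshold (adjusted p = 0.0739, limma). It passed without WT sample 3 (adjusted p = 0.0235), and also after quantile normalization, with only probe sets above background, with array weights and with the mean of Y-linked genes as a covariate. Cd200r2, another activating member, had log2 fold changes of 0.09 in gated APP and -0.35 in gated TAU (adjusted p = 0.836 and 0.272, limma). Cd200r3 was at background in all groups. The 4 genes follow each other without another gene between them.

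Among the sialic acid receptors, Siglecf rose and Siglece fell. Siglecf, an inhibitory receptor known from eosinophils and alveolar macrophages, had 8.71, 9.25, 9.05 and 9.63 in gated APP, 12.22, 12.24, 11.17 and 11.70 in gated TAU, and 8.24, 7.96, 8.27 and 7.89 in WT at 12 months, where it was at background. It was at least 2.08-fold higher in gated APP (adjusted p = 0.00783) and at least 13.2-fold higher in gated TAU (adjusted p = 6.77e-10, limma). Siglece, an inhibitory receptor of microglia, had 7.71, 6.64, 8.09 and 7.37 in gated APP, 8.88, 7.77, 8.23 and 7.96 in gated TAU, and 9.33, 9.14, 9.99 and 8.92 in WT at 12 months. Both gated groups lay under all WT samples. Siglece was at least 2.99-fold lower in gated APP, where it was at background (log2 fold change of the measured means -1.89 ± 0.31 SE, adjusted p = 0.000188), and its log2 fold change in gated TAU was -1.14 ± 0.31 (adjusted p = 0.0228, limma). The gated TAU call of Siglece was lost without WT sample 3 or without gated TAU sample 2 or 4 (adjusted p up to 0.0792). Siglec1, Siglec15 and Siglecg were at background in all groups.

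**Figure D2:**
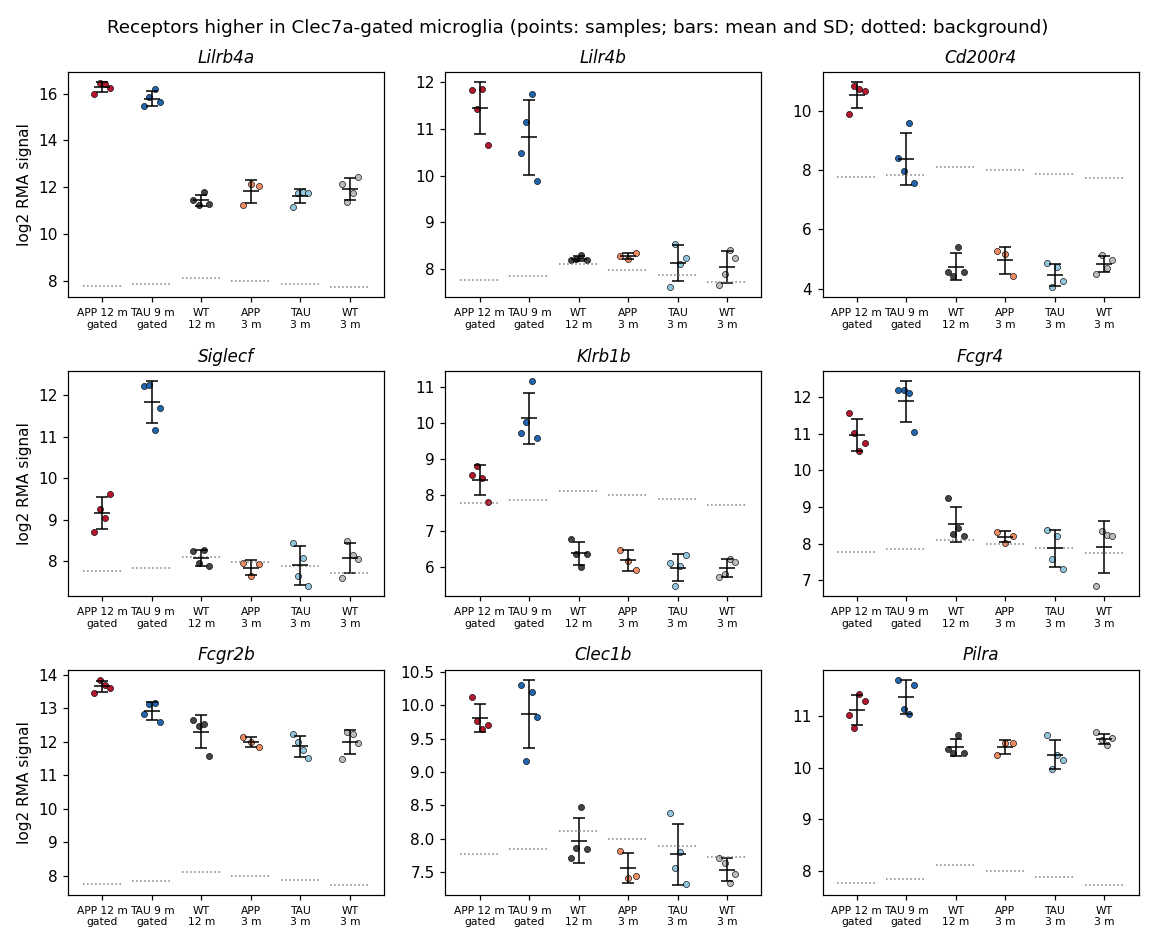
Log2 RMA signal of 9 receptors that were called higher in at least 1 aged gated group, by sample. Groups run from gated APP on the left to WT at 3 months on the right, points are samples, bars are the mean and SD, and dotted lines are each group's background. Lilrb4a lies at 15.46 or more in all gated samples and at 12.42 or less in all others, and the 4 gated TAU samples lead for Siglecf and Klrb1b.

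The Fc receptors for antibody did not move as a block. Fcgr4, an activating receptor that needs Fcer1g, had 11.56, 11.03, 10.52 and 10.76 in gated APP, 12.19, 12.21, 12.11 and 11.06 in gated TAU, and 9.24, 8.26, 8.42 and 8.21 in WT at 12 months. All gated samples were above the WT samples. The rise was 5.41-fold in gated APP (adjusted p = 2.43e-05) and 10.3-fold in gated TAU (adjusted p = 3.64e-07, limma). The window printed for Fcgr4 is the one that held motif matches.

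Fcgr2b, the inhibitory Fc receptor, had 13.46, 13.85, 13.69 and 13.60 in gated APP, 12.84, 13.12, 13.17 and 12.59 in gated TAU, and 12.66, 12.48, 12.52 and 11.56 in WT at 12 months. The gated APP samples lay above all WT samples and the gated TAU samples overlapped them. Fcgr2b rose 2.54-fold in gated APP (adjusted p = 0.000267). In gated TAU its log2 fold change of 0.62 ± 0.23 SE missed the threshold (adjusted p = 0.0946, limma). It passed after quantile normalization and with the mean of Y-linked genes as a covariate. Fcer1g, the adaptor of the activating Fc receptors, had 14.21, 13.75, 14.14 and 13.51 in gated APP, 14.20, 14.03, 14.31 and 13.69 in gated TAU, and 13.13, 12.58, 12.97 and 12.99 in WT at 12 months, a rise of 1.98-fold and 2.20-fold (adjusted p = 0.0104 and 0.00375).

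The other 2 activating Fc receptors above background were not called. Fcgr3, the low-affinity receptor, averaged 18.04 ± 0.23 in gated APP, 18.02 ± 0.16 in gated TAU and 18.05 ± 0.13 in WT at 12 months (SD, n = 4 each). Fcgr1, the high-affinity receptor, averaged 15.69 ± 0.17 in gated APP, 15.78 ± 0.26 in gated TAU and 15.55 ± 0.37 in WT at 12 months. Their log2 fold changes were between -0.02 and 0.23 with adjusted p of 0.629 or more (limma). Values near 18 are close to the highest on these arrays (19.85), and whether the signal was compressed there was not tested. Fcgr2b, Fcgr4 and Fcgr3 follow each other in that order on the chromosome.

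Of the 5 members of the Klrb1 group, natural killer type receptors, 3 (Klrb1a, Klrb1b and Klrb1c) were called higher in gated TAU. Klrb1 (mean 6.73 in gated TAU and 6.30 in WT at 12 months) and Klrb1f (6.10 and 6.17) were not called and were at background in both groups. Klrb1b (NKR-P1B) is an inhibitory receptor whose ligand Clr-b is encoded by Clec2d, in the same gene cluster. Klrb1b had 8.56, 8.81, 8.46 and 7.82 in gated APP, 9.73, 10.01, 11.16 and 9.59 in gated TAU, and 6.77, 6.37, 6.01 and 6.37 in WT at 12 months, where it was at background. It was at least 1.24-fold higher in gated APP (log2 fold change of the measured means 2.03 ± 0.28 SE, adjusted p = 2.70e-05) and at least 4.05-fold higher in gated TAU (3.74 ± 0.28, adjusted p = 4.33e-09, limma).

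Clec2d, the ligand gene, had 10.07, 10.46, 10.30 and 9.52 in gated APP, 8.98, 9.06, 10.40 and 9.18 in gated TAU, and 9.04, 7.95, 8.49 and 8.32 in WT at 12 months. Gated APP lay above all WT samples, and gated TAU overlapped them through 1 sample on each side. The rise was 3.11-fold in gated APP (adjusted p = 0.000468) and 1.94-fold in gated TAU (adjusted p = 0.0423, limma). The gated TAU call was lost without WT sample 2, 3 or 4 or gated TAU sample 3 (adjusted p up to 0.176, log2 fold change 0.62 to 1.15 over the samples left out).

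Klrb1a, an activating receptor, had 8.24, 8.21, 7.44 and 8.16 in gated TAU against 5.43, 6.18, 5.16 and 5.43 in WT at 12 months. It was called in gated TAU (log2 fold change of the measured means 2.46 ± 0.27 SE, adjusted p = 1.01e-06), but its mean of 8.01 there lies just over that group's background of 7.85, and no fold is given. In gated APP Klrb1a stayed at background (6.18; adjusted p = 0.161, limma). Klrb1c (NK1.1), also activating, had 9.11, 10.08, 9.90 and 9.50 in gated TAU against 7.91, 9.12, 6.55 and 8.54 in WT at 12 months, at least 2.91-fold higher (adjusted p = 0.0443). The groups overlapped by 1 WT sample, and the Klrb1c call was lost without WT sample 1 or 3 or any 1 gated TAU sample (adjusted p up to 0.125).

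The natural killer and T cell marker list is given beside these receptors, with all its markers at background. Its mean level was 5.20 to 5.32 in gated APP, 5.36 to 5.46 in gated TAU and 5.14 to 5.54 in WT at 12 months, with 0 of 12 markers above background in each, among them Ncr1, Cd3e and Prf1. Ccl5 was the 1 marker called higher in gated TAU, with a mean of 7.46 against 5.82 in WT at 12 months, both at background. In gated APP, 1 marker was called lower than in WT at 12 months and 1 lower than in gated TAU. The part of these markers in the Klrb1 values was not tested. Klrd1 (CD94), a partner chain of natural killer receptors, was called lower in both groups with a mean of 6.73 in gated APP, 6.55 in gated TAU and 8.06 in WT at 12 months, all at background in their groups. Klrb1 genes resemble each other closely, and whether probes of one read another was not tested.

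C-type lectin receptors went both ways. Of 32 members whose names start with Clec, 3 were called higher and 4 lower in gated APP, and 4 higher and 1 lower in gated TAU. Of all probe sets 5.60% were called higher and 3.48% lower in gated APP, and 5.09% higher and 3.67% lower in gated TAU, so that the 1 lower in gated TAU is near the share of all probe sets and the 3 higher in gated APP not far above it. Clec1b (CLEC-2), which signals through a half-ITAM motif and binds podoplanin, had 10.12, 9.77, 9.65 and 9.70 in gated APP, 10.30, 9.17, 10.20 and 9.82 in gated TAU, and 7.70, 7.86, 8.47 and 7.85 in WT at 12 months. No gated sample overlapped WT, where the mean was at background. Clec1b was at least 3.26-fold higher in gated APP (adjusted p = 1.09e-05) and at least 3.40-fold higher in gated TAU (adjusted p = 9.93e-06, limma). Podoplanin (Pdpn) was at background in both gated groups and in WT at 12 months.

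Clec1a, a lectin described on endothelial and myeloid cells, had 7.83, 8.86, 9.08 and 8.72 in gated APP, 6.76, 7.01, 7.72 and 7.09 in gated TAU, and 5.82, 6.32, 6.24 and 6.72 in WT at 12 months. It was at least 1.43-fold higher in gated APP (log2 fold change of the measured means 2.35 ± 0.27 SE, adjusted p = 1.92e-06). In gated TAU it was at background as in WT, and that call (adjusted p = 0.0480, limma) was lost without WT sample 1, 2 or 3 or gated TAU sample 2, 3 or 4 (adjusted p up to 0.173). The 5 endothelial markers measured had a mean level of 6.23 to 8.82 in gated APP, 6.54 to 6.61 in gated TAU and 6.54 to 7.29 in WT at 12 months. Of these, Flt1 was called higher and Pecam1 lower in gated APP, and their part in the Clec1a values was not tested. In order of sample, gated APP had 6.23, 8.82, 7.77 and 6.72 for these markers. Without gated APP sample 2 the Clec1a call remained, with sample 3 still in the fit.

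Of the 6 members called lower in gated APP, 4 lie in the Dcir cluster, and the other two are Siglece and Klrd1. Of the 3 called lower in gated TAU, 1 (Clec4a2) lies there. Clec4a2 (Dcir1), an inhibitory lectin receptor, had 8.34, 8.52, 9.44 and 8.63 in gated APP, 10.32, 9.88, 10.48 and 9.59 in gated TAU, and 11.42, 11.15, 11.42 and 10.65 in WT at 12 months. The 3 groups did not overlap. The log2 fold change was -2.43 ± 0.30 SE in gated APP (adjusted p = 4.56e-06) and -1.09 ± 0.30 in gated TAU (adjusted p = 0.0229, limma). The gated TAU call was lost without WT sample 1 or gated TAU sample 2 or 4 (adjusted p up to 0.0724).

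Clec4a3, a related lectin of the cluster, had 8.36, 8.69, 8.58 and 8.45 in gated APP, 10.30, 9.33, 10.50 and 9.39 in gated TAU, and 10.88, 10.24, 10.95 and 9.90 in WT at 12 months. Its log2 fold change was -1.97 ± 0.33 SE in gated APP (adjusted p = 0.000283) and -0.61 ± 0.33 in gated TAU (adjusted p = 0.298, limma), where the samples overlapped. In RefSeq's order the cluster runs Clec4a1, Clec4a3, Clec4a4, Clec4b1, Clec4a2, Clec4b2, Clec4n, Clec4d and Clec4e with no other gene between. The 4 genes from Clec4a3 to Clec4a2 are the 4 Clec members called lower in gated APP. Clec4a4 (mean 5.92 in gated APP and 6.67 in WT at 12 months) and Clec4b1 (6.76 and 7.90) were at background in both groups, and both fall outside the rule for named genes and were added after their values were seen. The Clec4a4 call (adjusted p = 0.0488) was lost without WT sample 1, 2 or 4 or gated APP sample 1, 2 or 3 (adjusted p up to 0.190). These genes are alike in sequence, and whether probes of one read another was not tested.

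**Figure D3:**
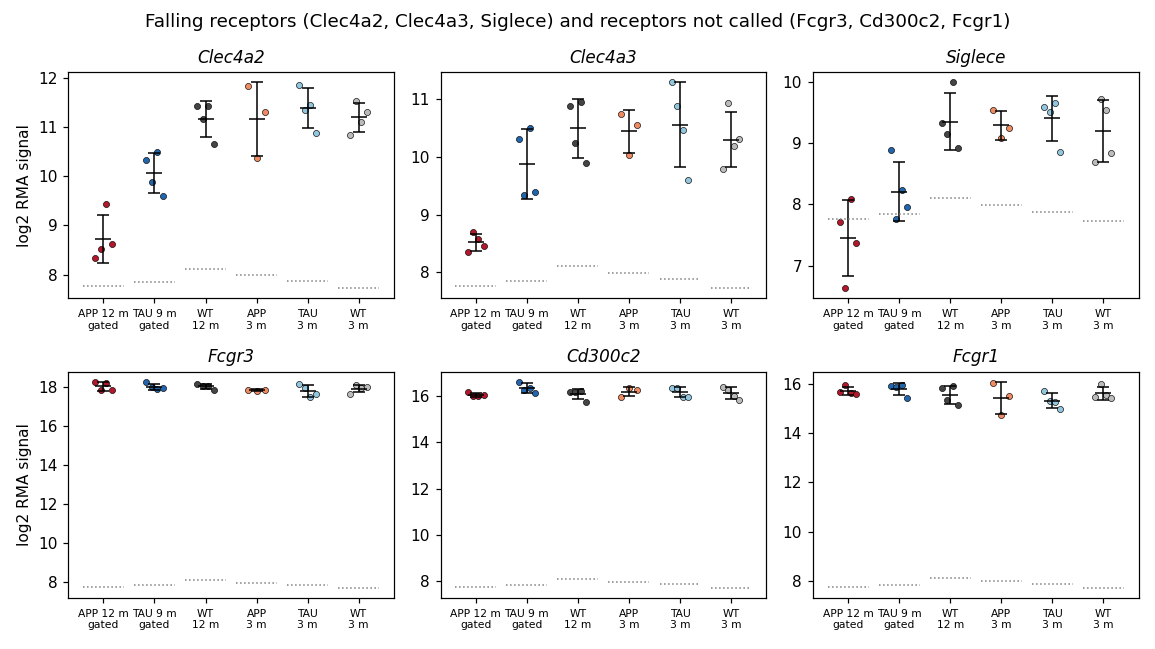
Log2 RMA signal of 3 receptors that fell (top row) and 3 abundant activating receptors that were not called (bottom row), by sample. Points are samples, bars are the mean and SD, and dotted lines are each group's background. The 4 gated APP samples are the lowest for Clec4a2 and Clec4a3, while all samples lie between 17.49 and 18.26 for Fcgr3.

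Smaller rises were found among Pilra, Cd300lf and Clec5a. Pilra, an inhibitory receptor whose ligands include Pianp, had 11.01, 10.76, 11.42 and 11.28 in gated APP, 11.70, 11.14, 11.03 and 11.59 in gated TAU, and 10.35, 10.28, 10.64 and 10.29 in WT at 12 months. It rose 1.66-fold in gated APP (adjusted p = 0.0109) and 1.97-fold in gated TAU (adjusted p = 0.00105, limma). The gated APP call was lost without gated APP sample 3 (adjusted p = 0.0517). Its activating partners Pilrb1 and Pilrb2 were at background in all groups.

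Cd300lf, an inhibitory lipid receptor, had 10.88, 10.68, 10.66 and 11.35 in gated APP, 10.86, 10.98, 9.63 and 10.86 in gated TAU, and 9.57, 10.39, 9.61 and 9.97 in WT at 12 months. It rose 2.01-fold in gated APP (adjusted p = 0.0269), a call lost without WT sample 1, 3 or 4 or gated APP sample 1 or 4 (adjusted p up to 0.0886). In gated TAU its log2 fold change was 0.70 (adjusted p = 0.146), and it passed without gated TAU sample 3, the low one (adjusted p = 0.0197, limma). Clec5a, an activating receptor that pairs with Tyrobp and falls outside the rule for named genes, had 13.14, 13, 13.38 and 13.03 in gated TAU against 12.29, 11.90, 12.59 and 12.17 in WT at 12 months. It rose 1.87-fold (adjusted p = 0.0126), a call lost without WT sample 2 (adjusted p = 0.0518). Cd300lb, activating, and Klra17 (Ly49Q), inhibitory, were also called higher in gated TAU while at background in both groups, with log2 fold changes of 1.26 and 0.75.

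Several abundant receptors of both classes were not called. Sirpa, the inhibitory CD47 receptor, averaged 13.95 in gated APP, 13.94 in gated TAU and 14.22 in WT at 12 months, with adjusted p of 0.480 and 0.453. Cd300c2, activating, averaged 16.05 in gated APP, 16.33 in gated TAU and 16.08 in WT at 12 months. Cd300a, an inhibitory receptor of phosphatidylserine, averaged 8.99 in gated APP, 9.41 in gated TAU and 9.27 in WT at 12 months. Pirb, the inhibitory class I histocompatibility receptor, averaged 9.48 in gated APP, 10.25 in gated TAU and 9.58 in WT at 12 months, and its log2 fold change of 0.67 in gated TAU had an adjusted p of 0.0826 (limma), which passed without gated TAU sample 2 (adjusted p = 0.0443).

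By class, 9 of 26 inhibitory receptors (34.6%) were called in gated APP, 6 higher and 3 lower, and 4 of 32 activating ones (12.5%), 3 higher and 1 lower. In gated TAU, 7 of 26 inhibitory (26.9%), 5 higher and 2 lower, and 7 of 32 activating (21.9%), all higher, were called. The shares for all probe sets were 9.08% and 8.76%. The median log2 fold change was -0.12 for inhibitory and -0.01 for activating receptors in gated APP, and 0.19 and 0.22 in gated TAU. The difference between classes was not tested.

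**Figure D4:**
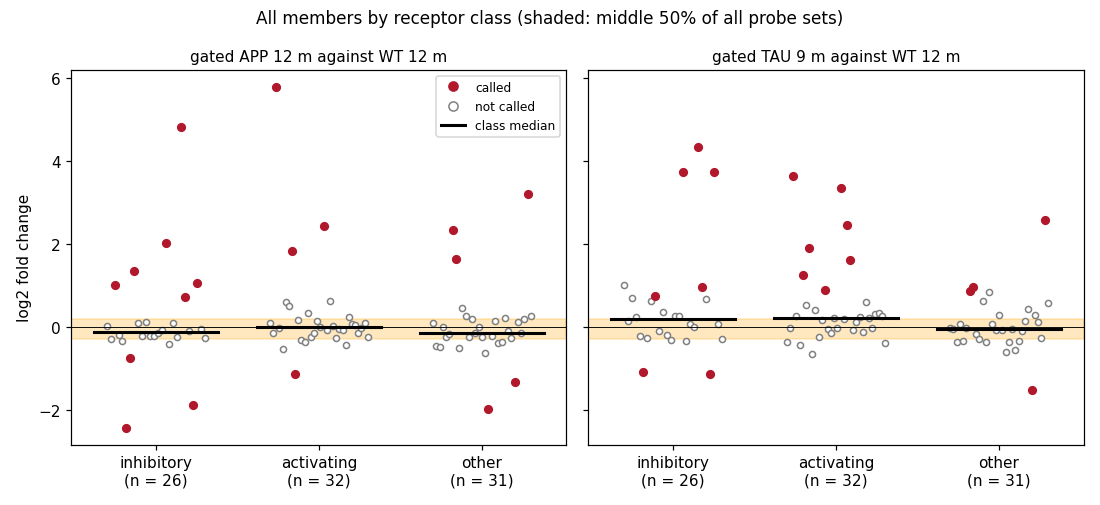
Log2 fold change of all inhibitory, activating and other members against WT at 12 months, in gated APP (left) and gated TAU (right). Red points are called, open points are not, black bars are class medians, and the shaded band holds the middle 50% of all probe sets. In both panels the highest inhibitory point is Lilrb4a and the highest activating point is Cd200r4.

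A balance was taken per sample as the median deviation of the inhibitory members from their mean over groups, minus that of the activating members, in log2 units. It was -0.24, -0.18, 0.07 and -0.03 in gated APP, 0.10, 0.07, -0.24 and -0.14 in gated TAU, and 0.04, 0.08, -0.04 and 0.05 in WT at 12 months. The groups overlapped. Group means were -0.10 ± 0.14 in gated APP, -0.05 ± 0.17 in gated TAU, 0.04 ± 0.05 in WT at 12 months, 0.02 ± 0.12 in APP at 3 months, 0.00 ± 0.08 in TAU at 3 months and -0.04 ± 0.12 in WT at 3 months (SD, n = 4 each, 3 for APP at 3 months). Over the 11 inhibitory and 8 activating members with a mean above background, the balance was -0.23 ± 0.13 in gated APP, 0.04 ± 0.26 in gated TAU and 0.01 ± 0.08 in WT at 12 months. That mean is taken over all 23 samples, gated ones included, so that the choice of members is not independent of the values described. Clec1b (mean 8.45) passed though at background in all ungated groups. Cd200r4 (mean 6.38), above background in both gated groups, did not. The balances are a description, with no test. In the balance over all members, 12 of 26 inhibitory and 12 of 32 activating receptors passed background in at least 1 group. Steep changes of a few receptors therefore weigh little in its medians.

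**Figure D5:**
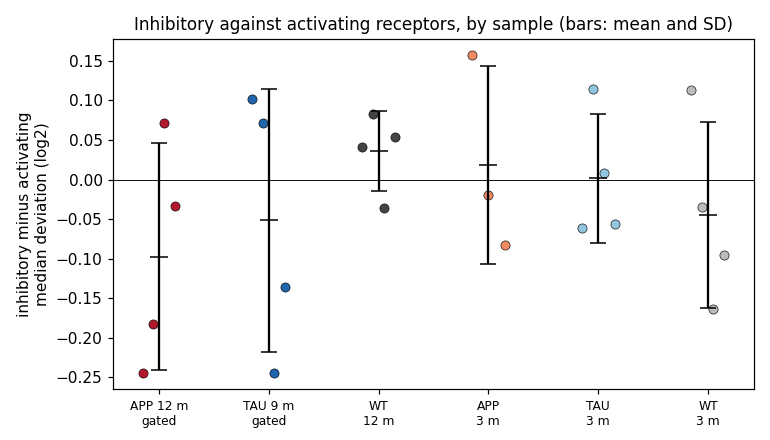
Inhibitory minus activating median deviation in log2 units for each of the 23 samples, with the mean and SD of each group. Groups run from gated APP on the left to WT at 3 months on the right. The samples of all 6 groups overlap, between -0.24 and 0.16.

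The gated groups were set against each other directly to show where amyloid and tau models differed. There 6 of 91 members were called, 2 higher and 4 lower in gated APP than in gated TAU, where 0.928% of all probe sets were called (0.626% higher and 0.302% lower). Cd200r4 was higher in gated APP (log2 difference 2.15 ± 0.34 SE, adjusted p = 0.000835), as was Clec1a (1.48 ± 0.27, adjusted p = 0.00425), by at least 1.71-fold since Clec1a was at background in gated TAU. Lower in gated APP were Siglecf (-2.67 ± 0.26, adjusted p = 8.29e-07), Klrb1a (-1.83 ± 0.27, adjusted p = 0.000290), Klrb1b (-1.71 ± 0.28, adjusted p = 0.00144) and Clec4a2 (-1.34 ± 0.30, adjusted p = 0.0259, limma). Klrb1a was at background in gated APP. None of the 6 had overlapping samples between the gated groups, where over all probe sets 2.56% lay wholly higher and 2.14% wholly lower in gated APP.

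The Clec4a2 difference between the gated groups was lost without gated APP sample 1, 2 or 4 or gated TAU sample 1 or 3 (adjusted p up to 0.105). With only the gated groups in the fit, the calls of Klrb1b (adjusted p = 0.0526, limma), Clec1a (0.0531) and Clec4a2 were lost, the last also with arrays centred on their medians. Fcgr4, Fcgr2b, Lilrb4a and Lilr4b were not called between the gated groups, with adjusted p of 0.313, 0.197, 0.546 and 0.558 (limma). With the replicate number as a block, 7 members were called between the gated groups. The ages differ (12 and 9 months), and age and strain cannot be told apart here. Border macrophage markers moved in this comparison as well as against WT at 12 months. The mean level of the 10 markers was 7.71 to 7.83 in gated APP, 8.47 to 9.27 in gated TAU and 8.13 to 8.50 in WT at 12 months, and Ms4a7, Cd36, Mrc1 and Stab1 were called lower in gated APP than in gated TAU. Their part in the receptor differences was not tested.

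At 3 months, before pathology per the labels, no member was called in APP or TAU against WT, where 0% of all probe sets were called. At an unadjusted p under 0.05 there were 3 members in APP (3.30%) and 5 in TAU (5.49%), near the 2.92% and 4.15% of all probe sets. In WT at 12 against 3 months no member was called either, where 0.0360% of all probe sets were called, and 9 members (9.89%) passed an unadjusted p under 0.05, near the 8.95% of all probe sets.

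The change with age in each strain minus that in WT puts the gated groups against their own ungated young samples. Gate and age change together there and cannot be told apart. The TAU change runs from 3 to 9 months and the WT change from 3 to 12. For APP 12 members were called, 9 higher and 3 lower, where 3.80% of all probe sets were called (2.82% higher and 0.977% lower). For TAU 11 were called, all higher, where 3.75% of all probe sets were called (2.60% higher and 1.15% lower). The steepest were Cd200r4 (5.67 ± 0.50 SE in APP and 4.01 ± 0.48 in TAU) and Lilrb4a (4.93 ± 0.35 and 4.64 ± 0.34), with adjusted p of 1.18e-05 or less (limma). The TAU value of Clec2d (1.93 ± 0.41) includes its low level at 3 months, where its samples were 8.14, 7.82, 7.77 and 7.02 in TAU against 8.46, 8.88, 8.74 and 8.56 in WT. With the mean of Y-linked genes as a covariate, 8 members were called for APP, 5 higher and 3 lower, where 447 of all probe sets were called. The calls of Klrb1b (adjusted p = 0.0784), Clec2d (0.0688), Fcgr4 (0.133) and Fcgr2b (0.198) were lost there (limma). That mean was 4.14 to 4.62 in APP at 3 months, 4.16 to 7.13 in gated APP and 6.06 to 7.46 in the WT samples of both ages, and strain and what this mean tracks cannot be told apart at 3 months. For TAU 10 were called with this covariate, and the call of Fcer1g was lost (adjusted p = 0.0830). In APP the value of Fcgr2b (1.34, adjusted p = 0.0221) lost its call without WT 3-month sample 2 or 3 or APP 3-month sample 2 or 3 (adjusted p up to 0.0675). In TAU the value of Fcer1g (1.35, adjusted p = 0.0281) lost its call without WT 3-month sample 2 or 3, TAU 3-month sample 3 or 4, WT 12-month sample 2 or gated TAU sample 1 or 3 (adjusted p up to 0.0686).

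The signalling partners of these receptors also changed, on both sides. Of 26 measured genes of a list of 28, 5 rose and 5 fell in gated APP, and 7 rose and 4 fell in gated TAU, where 9.08% of all probe sets were called in gated APP and 8.76% in gated TAU. The adaptor Tyrobp averaged 18.23 ± 0.21 in gated APP, 18.01 ± 0.18 in gated TAU and 16.93 ± 0.20 in WT at 12 months (SD, n = 4 each), with adjusted p of 2.29e-05 and 0.000330. Hcst (adjusted p = 7.89e-06 and 0.0374), the scaffold Lat2 (0.000292 and 0.000103) and Malt1 (0.000116 and 0.00328), which links Card9 to NF-kB, rose in both as well (limma).

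Negative regulators on the list went both ways. Inpp5d (SHIP1), the phosphatase recruited by inhibitory receptors, averaged 15.12 in gated APP, 15.13 in gated TAU and 15.96 in WT at 12 months (adjusted p = 0.00462 and 0.00639). Dok3 and Sla, which dampen receptor signals, and Nfam1, an activating receptor with its own ITAM, fell in both, and Cbl, a ubiquitin ligase, was called lower in gated APP. Ptpn6 (SHP-1), also a phosphatase recruited by inhibitory receptors, was called higher in gated APP (log2 fold change 1.14, adjusted p = 0.0249, limma). Fgr, a Src family kinase, was called higher in gated TAU (2.35, adjusted p = 6.75e-08, limma).

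Receptors of the same kind outside the name rule gave 6 higher and 3 lower of 17 in gated APP, and 5 higher and 5 lower in gated TAU, beside the same 9.08% and 8.76% of all probe sets called. Milr1 (Allergin-1), an inhibitory receptor, averaged 11.23 in gated APP, 10.57 in gated TAU and 7.68 in WT at 12 months (adjusted p = 1.26e-08 and 4.51e-07). Trem2, a Tyrobp partner, averaged 16.36 in gated APP, 15.64 in gated TAU and 14.73 in WT at 12 months (adjusted p = 1.41e-05 and 0.00933), and Treml2 and Cd72 rose in both. Cd33, an inhibitory sialic acid receptor in humans, averaged 11.36 in gated APP, 11.69 in gated TAU and 12.74 in WT at 12 months (adjusted p = 0.000801 and 0.0110, limma), and Ceacam1 and Fcrl1 fell in both.

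Of 11 measured ligands of a list of 14, 4 rose in each gated group and none fell, where 5.60% of all probe sets were called higher in gated APP and 5.09% in gated TAU. These were the class I molecules H2-D1, H2-K1 and H2-T23, ligands of Klr and Pirb receptors, and the Pilra ligand Pianp. H2-D1 averaged 13.50 in gated APP, 13.75 in gated TAU and 10.91 in WT at 12 months (adjusted p = 1.18e-07 and 3.75e-08). Pianp averaged 7.81 in gated APP, just over background, 6.81 in gated TAU and 5.22 in WT at 12 months, both at background. Cd47 and Cd200, ligands of Sirpa and Cd200r1, were not called (adjusted p of 0.446 or more, limma).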

How the data were processed

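Gene expression of 23 mouse microglia samples in 6 groups was measured on microarrays from 5 ng of total RNA each. The authors deposited log2 signals, for which the submitters' processing notes name RMA and the Transcriptome Analysis Console, and no versions or genome build are given in the sources used here. Symbols came from GEO's platform annotation, 1 symbol for each member.

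All samples entered 1 linear model with a mean per group (limma 3.58.1, R 4.3.3, lmFit and eBayes, two-sided), with no further normalization and no filter. The median SE of a log2 fold change was 0.226. On simulated data for gated APP against WT at 12 months over 22203 probe sets, 56 of 100 shifts of 1 log2 unit and 95 of 100 shifts of 2 were called. No other probe set was shifted there, while 9.08% were called in the data, and the adjustment depends on that share. These rates therefore do not describe the real comparison. Members, classes and lists were chosen with earlier results of these data known. Members named are those called in a contrast with a higher mean above background (up to 15 per direction) and up to 8 uncalled members above background in all groups. Promoters are from RefSeq (GRCm38.p6), read with Python 3.11.15. The planned count of inhibitory motifs in protein tails was not run.

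Samples of gated APP and gated TAU with the same replicate number deviated together (r of 0.18, 0.22, 0.19 and 0.42), so that the numbers pair them by the rule used, which the labels do not state. Alternatives were array centring, quantile normalization, a filter on dim probe sets, other fits and weights, a Y-linked covariate, the replicate block and leaving out samples.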

Additional observations from a re-analysis of the deposited data

Results flagged for a closer look

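In 160 groups of 4 samples (32 receptors, 5 groups), 14 had 1 sample far from the other 3, where chance gives about 1 in 20 groups. In gated APP this was Klrb1c in sample 3 (7.59, the others from 8.17). In gated TAU it was Fcgr4 in sample 4 (11.06), Klrb1a in sample 3 (7.44), Cd300lf in sample 3 (9.63), all low, and Clec2d in sample 3 (10.4, the others up to 9.18). In TAU at 3 months it was Lilrb4a in sample 1 (11.16, low), Pirb in sample 1 (8.96, high) and Cd300lb in sample 4 (6.49, high). In WT at 12 months it was Cd200r4 in sample 3 (5.42) and Lilr4b in sample 3 (8.31), both high, and Fcgr2b (11.56) and Cd300c2 (15.74) in sample 4, both low. In WT at 3 months it was Fcgr4 (6.84) and Sirpa (13.81) in sample 1, both low.

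The gated groups differed by a direct test (limma, adjusted p of 0.0259 or less) in 6 receptors. The log2 difference, gated APP minus gated TAU, was 2.15 for Cd200r4, 1.48 for Clec1a, -2.67 for Siglecf, -1.83 for Klrb1a, -1.71 for Klrb1b and -1.34 for Clec4a2.

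The change with age differed from that of WT in 12 receptors for APP. The values were 5.67 for Cd200r4, 4.93 for Lilrb4a, 2.99 for Lilr4b, 2.16 for Fcgr4, 1.99 for Clec2d, 1.93 for Clec1a, 1.83 for Klrb1b, 1.82 for Clec1b, 1.34 for Fcgr2b, -2.4 for Clec4a2, -2.12 for Clec4a3 and -1.99 for Siglece. For TAU there were 11, with 4.64 for Lilrb4a, 4.01 for Cd200r4, 3.92 for Siglecf, 3.73 for Klrb1b, 3.4 for Fcgr4, 2.52 for Lilr4b, 2.33 for Klrb1a, 1.93 for Clec2d, 1.67 for Clec1b, 1.35 for Fcer1g and 1.28 for Pilra. The gate differs with age in both strains, and gate and age cannot be told apart.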

How the results depend on the processing

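The counts of members called stayed within 1.5 times under each alternative except 1. At exactly 1.5 times, the APP change with age gave 8 in place of 12 with the mean of Y-linked genes as a covariate, and the gated pair 4 in place of 6 with only the groups of the contrast. With only probe sets with a mean above background, 3 members were called between the gated groups in place of 6, since fewer members were tested. The balance of WT at 12 months was -0.0277 without the Klr receptors, against 0.0355 with them. Other group balances also changed sign, each within 1 SD of its replicates, so that no direction is read from them: gated TAU (-0.0518) was 0.0291 with means of the deviations, 0.0362 over members above background and 0.0171 without replicate 3, APP at 3 months (0.0181) was -0.0154 after quantile normalization and -0.0296 without replicate 1, TAU at 3 months (0.0015) ran from -0.0491 to 0.0254, and WT at 3 months (-0.0449) was 0.0210 with means, 0.0343 over members above background and 0.0021 without replicate 3. No called receptor value changed direction under these alternatives. Of 67 called receptor values, 44 were kept under every alternative and 23 were lost under at least 1, and 6 of 26 uncalled values passed under at least 1. With WT 12-month samples 2 and 4 both left out, the gated APP calls of Siglecf, Fcer1g, Pilra and Clec4a4 and the gated TAU calls of Fcer1g, Clec1a, Clec2d, Clec5a and Klra17 were lost. Leaving out 1 sample gave 17 to 19 members called in gated APP, 15 to 19 in gated TAU, 5 to 7 between them, 0 in the comparisons at 3 months and of WT with age, 11 to 15 for the APP change with age and 10 to 13 for the TAU one. With the replicate block, 18 members were called in gated APP, 19 in gated TAU, 7 between them, 13 for the APP and 13 for the TAU change with age and 0 in the others. Outside the gated pair, same-numbered samples did not all deviate together (r from -0.35 to 0.47). With WT at 12 months, r was 0.02, 0.10, 0.47 and 0.31 for gated APP and 0.06, 0.30, 0.42 and 0.17 for gated TAU. Between TAU and WT at 3 months it was 0.10, 0.25, 0.11 and 0.18, so that positive values are not particular to the gated pair. The negative values were among WT at 12 against 3 months and young APP against young WT. Whether the numbers mark a shared batch is not stated in the labels and was not tested. Signals near background limit the folds of Klr, Siglec and Cd200r members.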
